A study of Mus musculus with 4 samples.

Results

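Collagens, the enzymes that cut and cross-link the extracellular matrix, and the inhibitors of those enzymes were followed in mouse adult neural stem cells with and without knockdown of Ogt. The members are the protein-coding genes of GENCODE M21 whose symbol is Col, a number, the letter a and a number, or starts with Mmp and a digit, Timp and a digit, Adamts or Lox. Of 100 such genes in the annotation, 89 have values in the files used here, out of 25261 genes in all, and the other 11 were not analysed here. They are 44 collagen chains, 14 matrix metalloproteinases (MMPs), 17 ADAMTS proteases, 5 ADAMTS-like proteins, 4 tissue inhibitors of metalloproteinases (TIMPs) and 5 lysyl oxidases.

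The study sequenced RNA from adult neural stem cells, which persist in the grown brain and can give rise to neurons and glia. Both groups came from C57BL/6 mice aged 8 weeks and were infected with a lentivirus. In shOGT cells the virus carried a short hairpin RNA that targets Ogt (2 libraries), and in ctrl cells a scrambled hairpin (2 libraries). The labels give neither the hairpin sequences nor the time after infection, nor tell if each library had a culture of its own, so that p-values here measure a spread that could be only technical. Ogt encodes O-GlcNAc transferase, which attaches a single sugar to nuclear and cytoplasmic proteins.

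Collagens are secreted as triple helices of chains and form fibrils, basement membrane sheets and fibril-coating layers, while brain tissue holds little fibrillar collagen outside vessels and meninges. MMPs and ADAMTS proteases are zinc enzymes that cut matrix and cell surface proteins; the lecticans of brain matrix, such as neurocan and versican, are substrates of several ADAMTS enzymes. TIMPs bind and block MMPs, and lysyl oxidases cross-link collagen and elastin. Adult neural stem cells lie beside vessels and basement membrane structures, and matrix composition is part of their niche.

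Values are the deposited signal per gene, which is normalized and carries no length correction. Every value was a whole multiple, within 0.01, of a step between 0.943 and 1.06 in its library, the form of read counts divided by 1 factor per library. Read that way, the libraries held 15697508 and 17753976 reads in shOGT and 16909316 and 17090949 in ctrl. Ogt measured 3379 and 3516 in shOGT, against 4112 and 4138 in ctrl, a fall of modest size (log2 fold change -0.26 ± 0.04, SE; limma adjusted p = 0.00876). Neural stem cell markers were abundant, with Nes at 13187 to 15395 and Sox2 at 5250 to 5429 over the 4 libraries. The 11 markers summed to 128232 and 133110 in shOGT, against 137168 and 140875 in ctrl, with a median log2 fold change of -0.02. Against 2.90% and 1.96% of all genes tested, 2 of these markers were called lower and 0 higher. Fabp7 was among them (log2 fold change -0.49 ± 0.04, limma adjusted p = 0.000971); their part in the results on the members was not tested. Endothelial and microglial markers were scarce. Summed over 6 endothelial markers the signal was 85.1 and 87.7 in shOGT and 54.9 and 68.4 in ctrl, and over 6 microglial markers 9.57 and 13.2 in shOGT and 11.0 and 8.93 in ctrl. Of 8 fibroblast markers, Dpt, Apod, Twist1, Fap and S100a4 stayed at 7.54 or below in every library, S100a4 being listed at 0 in both shOGT libraries. That list's sums (2923 and 3082 in shOGT, 3135 and 3201 in ctrl) came almost wholly from Prrx1, Thy1 and Pdgfra. Pdgfra, which also marks oligodendrocyte precursors, was the only called gene of the fibroblast and oligodendrocyte lineage lists, at 132 and 137 in shOGT, against 287 and 303 in ctrl (-1.13 ± 0.11, adjusted p = 0.00130). Of 11 pericyte and smooth muscle markers, summed at 3941 and 3426 in shOGT and 4131 and 4031 in ctrl with 0 called, Cspg4 and Notch3 carried the sum. Cspg4 measured 2240 and 1868 in shOGT and 2384 and 2256 in ctrl (adjusted p = 0.232), and Notch3 1622 and 1471 in shOGT and 1665 and 1651 in ctrl (adjusted p = 0.374), both lower in both shOGT libraries. Pdgfrb stayed at 5.98 or below. Oligodendrocyte lineage markers were abundant, with sums of 62510 and 61498 in shOGT and 60235 and 61010 in ctrl, and ependymal markers summed to 836 and 789 in shOGT and 674 and 713 in ctrl. In bulk RNA, fewer cells of a type and less RNA per cell cannot be told apart.

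Genes were compared with limma on log2(signal + 1), with p-values adjusted over all 21829 genes that reached a value of 1 in at least 2 libraries. A gene is called higher or lower at an adjusted p under 0.05, and fold changes on this scale understate those of low genes. Of the 89 members, 85 passed the filter; Col15a1, Col10a1, Mmp13 and Mmp21 did not. The 85 include members that passed only through the group where they were higher.

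Knockdown cells carried less RNA of several matrix genes. Among the 85 tested members, 6 were lower in shOGT and 1 was higher, while 2.90% of all genes tested were called lower and 1.96% higher. The lower ones were the membrane protease gene Mmp15, the inhibitor gene Timp2, the collagen genes Col12a1 and Col5a1, and the protease genes Adamts1 and Adamts3. The higher one was Col18a1, a basement membrane collagen. Of the 35 members with a mean signal of at least 100, 5 were called lower and 1 higher, where 5.60% and 3.62% of all 11080 genes at that level were. The shOGT values lay below both ctrl values in 19 of these 35 members and above both in 4; among all genes at that level this held for 32.1% and 27.9%. Over all 85 members the groups were apart with lower values in 32 and with higher values in 15, where 24.3% and 25.0% of all genes were. At an unadjusted p under 0.05, 19 of the 85 members were lower and 7 higher, against 10.3% and 9.02% of all genes, and 16 of the 35 were lower and 3 higher, against 17.2% and 13.5% at that level. The median log2 fold change was -0.11 over those 35 members and -0.01 over the 11080 genes.

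**Figure D1:**
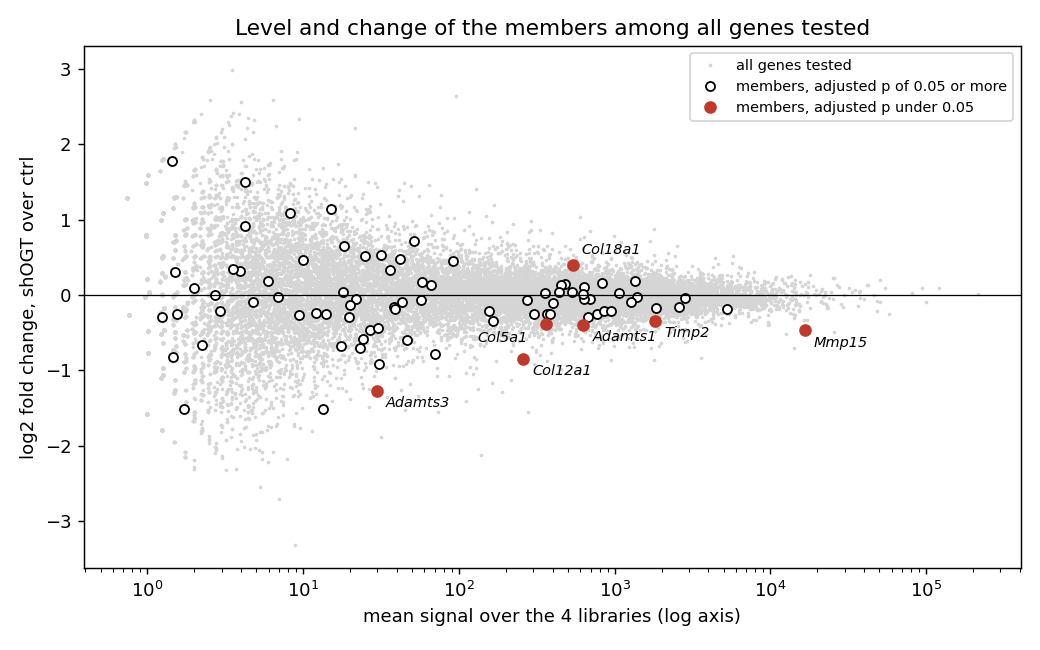
Mean signal over the 4 libraries (log axis) against the log2 fold change of shOGT over ctrl for all 21829 genes tested (grey), the members not called (open circles) and the 7 called members (red). Mmp15 stands at the right with a log2 fold change of -0.47; members below a mean of 10 scatter widely, as all genes of that level do.

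The 7 calls were not kept when a shOGT library was left out. That leaves 1 library in shOGT, which is assumed to vary like the ctrl pair. Without shOGT 1 or without shOGT 2, limma called 0 genes of the whole table (3229 and 3186 genes had an unadjusted p under 0.05), and the 7 genes then had adjusted p-values of 0.285 to 0.306. Their log2 fold changes moved little when 1 library was left out: -0.48 to -0.45 for Mmp15, -0.88 to -0.82 for Col12a1, -0.37 to -0.31 for Timp2, -0.43 to -0.36 for Adamts1 and -0.45 to -0.31 for Col5a1. The ranges were wider for Col18a1 (0.30 to 0.49) and for Adamts3 (-1.51 to -1.03). The call of Col5a1 was also lost without ctrl 1 (adjusted p = 0.172) and that of Adamts3 without ctrl 2 (adjusted p = 0.0797), both by limma.

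**Figure D2:**
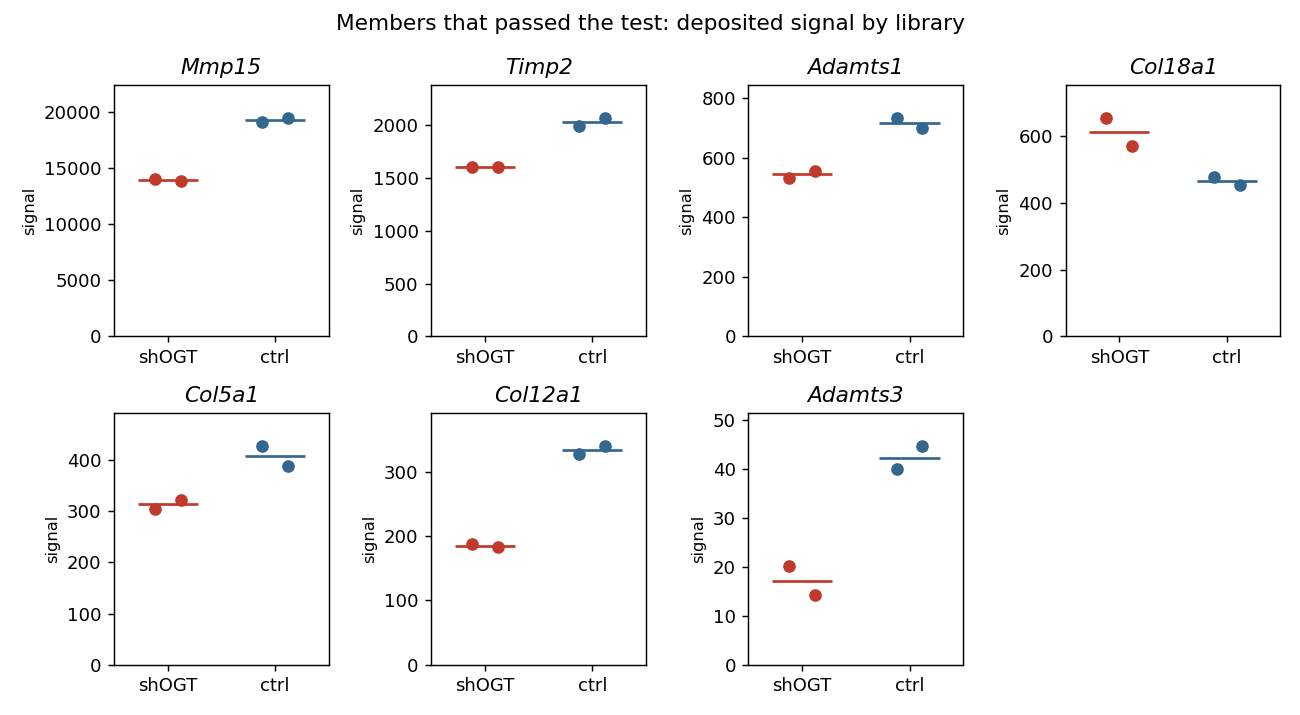
Deposited signal (vertical axes, from 0) of the 7 called members in shOGT and ctrl; points are libraries and lines are group means. In each panel the shOGT points lie on one side of the ctrl points, above them only for Col18a1.

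RefSeq promoter windows on GRCm38.p6 were available for 61 of the 89 members. The called member Col12a1 had none and is missing from the windows below. Those of the called members with a mean signal of at least 100 are printed here, 5′ to 3′ on the gene's strand, from 250 bases before a transcript start to 50 after it, so that the genes that moved can be compared at their start. Capitals mark the GC box bound by SP1-type factors (GGGCGG or CCGCCC) and the core site of RBPJ, the DNA-binding partner of Notch named by the series title's pathway (TGGGAA or TTCCCA).
Mmp15, chr8:95352046-95352345, plus strand: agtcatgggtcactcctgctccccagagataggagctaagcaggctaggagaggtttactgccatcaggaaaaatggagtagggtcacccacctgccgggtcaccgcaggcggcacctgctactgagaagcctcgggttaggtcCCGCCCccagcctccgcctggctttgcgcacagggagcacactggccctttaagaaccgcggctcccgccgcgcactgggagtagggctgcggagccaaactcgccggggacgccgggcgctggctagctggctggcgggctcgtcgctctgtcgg
Timp2, chr11:118355362-118355661, minus strand: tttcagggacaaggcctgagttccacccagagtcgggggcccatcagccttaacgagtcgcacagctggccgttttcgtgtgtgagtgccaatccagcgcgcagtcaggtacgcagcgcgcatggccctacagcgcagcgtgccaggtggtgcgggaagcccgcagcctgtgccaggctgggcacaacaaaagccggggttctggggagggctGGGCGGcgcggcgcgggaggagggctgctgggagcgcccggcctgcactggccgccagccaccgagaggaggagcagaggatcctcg
Adamts1, chr16:85803064-85803363, minus strand: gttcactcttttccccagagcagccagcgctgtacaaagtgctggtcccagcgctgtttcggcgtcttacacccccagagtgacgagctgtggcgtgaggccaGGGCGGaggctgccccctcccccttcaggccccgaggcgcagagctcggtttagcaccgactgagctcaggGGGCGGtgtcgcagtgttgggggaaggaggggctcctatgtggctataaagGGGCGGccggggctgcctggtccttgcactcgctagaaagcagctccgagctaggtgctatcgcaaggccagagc
Col5a1, chr2:27886175-27886474, plus strand: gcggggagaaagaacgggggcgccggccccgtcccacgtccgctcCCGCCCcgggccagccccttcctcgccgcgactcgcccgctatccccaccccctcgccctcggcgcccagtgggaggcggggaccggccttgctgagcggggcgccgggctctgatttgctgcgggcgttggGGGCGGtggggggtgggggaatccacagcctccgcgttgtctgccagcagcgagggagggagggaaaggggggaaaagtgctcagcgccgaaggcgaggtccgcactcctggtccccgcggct
Col18a1, first start, chr10:77166481-77166780, minus strand: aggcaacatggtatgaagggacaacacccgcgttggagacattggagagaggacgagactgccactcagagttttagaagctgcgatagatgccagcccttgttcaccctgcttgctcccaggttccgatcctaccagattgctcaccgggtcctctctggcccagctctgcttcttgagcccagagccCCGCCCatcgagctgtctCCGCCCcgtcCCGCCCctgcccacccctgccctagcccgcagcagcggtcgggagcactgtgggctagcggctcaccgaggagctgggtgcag
Col18a1, inner start, chr10:77113656-77113955, minus strand: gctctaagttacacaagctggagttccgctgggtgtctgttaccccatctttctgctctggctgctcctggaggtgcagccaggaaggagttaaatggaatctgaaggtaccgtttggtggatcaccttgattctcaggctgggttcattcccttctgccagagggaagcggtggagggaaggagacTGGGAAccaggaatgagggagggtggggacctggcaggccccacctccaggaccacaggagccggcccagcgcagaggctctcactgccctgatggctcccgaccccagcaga

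The windows of Mmp15 and Timp2 held 1 GC box each, that of Col5a1 2 and those of Adamts1 and the first Col18a1 start 3. GC boxes are common at genes of this level: 64.9% of 11053 windows of genes with a mean signal of at least 100 held one, as did 20 of 24 windows of members at that level, and 35.7% of all 32851 windows. The RefSeq start of Timp2 lies 329 bases from the GENCODE one. The RBPJ core was present only at the inner Col18a1 start among the printed windows. It was in 25.6% of all windows and in 22.4% of those of genes with a mean signal of at least 100. The letters TGANTCA, the site of AP-1 known from several MMP promoters, were in 0 of 7 windows of called members. These 7 windows belong to 6 called members, with both Col18a1 starts counted. The site was in 7.81% of all windows and in 4.52% of those of genes with a mean signal of at least 100. These matches describe letters and not binding.

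Among the 14 MMP genes, most of the signal per kb came from Mmp15. Mmp15 encodes a membrane-anchored MMP (MT2-MMP), and with a signal per kb of exon of 2580 in shOGT and 3570 in ctrl it took 87.2% and 85.0% of the summed per-kb signal of all 14 MMP genes in the shOGT libraries, and 88.4% and 88.7% in the ctrl libraries. Its signal was 14043 and 13801 in shOGT, against 19077 and 19473 in ctrl. Both shOGT values lay below both ctrl values, and the libraries of each group lay close together. The mean fell by 27.8%, to 13922 ± 171 in shOGT, against 19275 ± 280 in ctrl (SD, n = 2 each; log2 fold change -0.47 ± 0.03, limma adjusted p = 0.000335). Mmp15 (ENSMUSG00000031790) lies on the plus strand of chromosome 8, at 95352268 to 95375080 on GRCm38.

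The members together had a summed signal of 45662 and 46367 in shOGT, against 54237 and 53544 in ctrl. Without Mmp15 the sums were 31619 and 32566 in shOGT and 35160 and 34071 in ctrl, still not overlapping. Such sums follow the most abundant members. The signal summed over all genes was also lower in shOGT (16689493 and 16736001, against 16863191 and 16953670 in ctrl). All members with Mmp15 held 0.274% and 0.277% of that signal in shOGT, and 0.322% and 0.316% in ctrl. The other membrane-bound MMPs above a mean of 100 did not pass the test. Mmp14, the protease that activates pro-MMP2 together with TIMP2, measured 845 and 901 in shOGT and 1057 and 978 in ctrl (log2 fold change -0.22 ± 0.06, adjusted p = 0.0905). Mmp16, a further activator of pro-MMP2, measured 545 and 666 in shOGT and 719 and 756 in ctrl (-0.29 ± 0.09, adjusted p = 0.117). Mmp17, which is held by a lipid anchor, measured 155 and 137 in shOGT and 197 and 176 in ctrl (-0.35 ± 0.13, adjusted p = 0.168). In all of these the shOGT values lay below both ctrl values. Mmp24, a membrane MMP of neural tissue, ran the other way at a low level. It measured 61.7 and 67.9 in shOGT against 38.9 and 38.7 in ctrl (0.72 ± 0.21, limma adjusted p = 0.0885). Its exons overlap those of BC029722, and whether counting used strand is not given in the sources used here. Mmp23 and Mmp25, near the floor, also had positive log2 fold changes, with overlapping groups (1.09 ± 0.63 and 0.46 ± 0.57, limma adjusted p = 0.396 and 0.724).

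Secreted MMPs were scarce, apart from Mmp19. Mmp19 measured 390 and 503 in shOGT and 420 and 442 in ctrl, so that the groups overlapped (log2 fold change 0.04, 95% interval -0.21 to 0.29). The exons of Mmp19 overlap Tmem198b, those of Mmp11 Chchd10 and those of Mmp28 1700020L24Rik. Mmp2, the gelatinase that Mmp14 activates, measured 25.5 and 25.5 in shOGT and 29.9 and 40.7 in ctrl (adjusted p = 0.449). Mmp9, the other gelatinase, stayed between 1.06 and 4.71 in all libraries. Mmp11 measured 28.7 and 46.2 in shOGT and 53.9 and 57.5 in ctrl (adjusted p = 0.264), and Mmp28 35.1 and 37.7 in shOGT and 41.9 and 39.7 in ctrl (adjusted p = 0.778).

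Of the 4 TIMP genes, 1 was called lower and 0 higher, and in 3 both shOGT values lay below both ctrl values. Of all genes with a mean signal of at least 100, 5.60% were called lower and 32.1% lay apart with lower values. Timp2 measured 1608 and 1603 in shOGT, against 1992 and 2072 in ctrl. The groups were well apart, and the mean was 1605 ± 3.55 in shOGT and 2032 ± 57.0 in ctrl (SD, n = 2 each; log2 fold change -0.34 ± 0.05, limma adjusted p = 0.00520). Timp2 lies on the minus strand of chromosome 11, at 118301069 to 118355740. Timp4, the most abundant inhibitor by signal, measured 4696 and 5199 in shOGT, against 5707 and 5593 in ctrl (-0.19 ± 0.05, adjusted p = 0.0584). Timp3, which binds to the matrix and blocks ADAMTS enzymes as well, measured 849 and 737 in shOGT and 917 and 925 in ctrl (-0.22 ± 0.07, adjusted p = 0.138). Timp3 and Timp4 lie within introns of the synapsin genes Syn3 and Syn2 and share exon bases with them, so that reads of these pairs may have been counted for either gene. Timp1 varied most between libraries of 1 group, with 286 and 437 in shOGT and 373 and 323 in ctrl (0.03, 95% interval -0.35 to 0.41).

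Protease and inhibitor totals both lay lower in shOGT. Summed per kb, the 14 MMP genes gave 2985 and 3009 in shOGT and 3998 and 4066 in ctrl, and the 4 TIMP genes 1636 and 1876 in shOGT and 2012 and 1958 in ctrl. The ratio of MMP to TIMP sums was 1.83 and 1.60 in shOGT, against 1.99 and 2.08 in ctrl. Without Mmp15 the MMP sums were 384 and 452 in shOGT and 463 and 458 in ctrl. With 2 libraries a group, an exact permutation test of such sums cannot go below p = 0.333, and none was run.

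**Figure D3:**
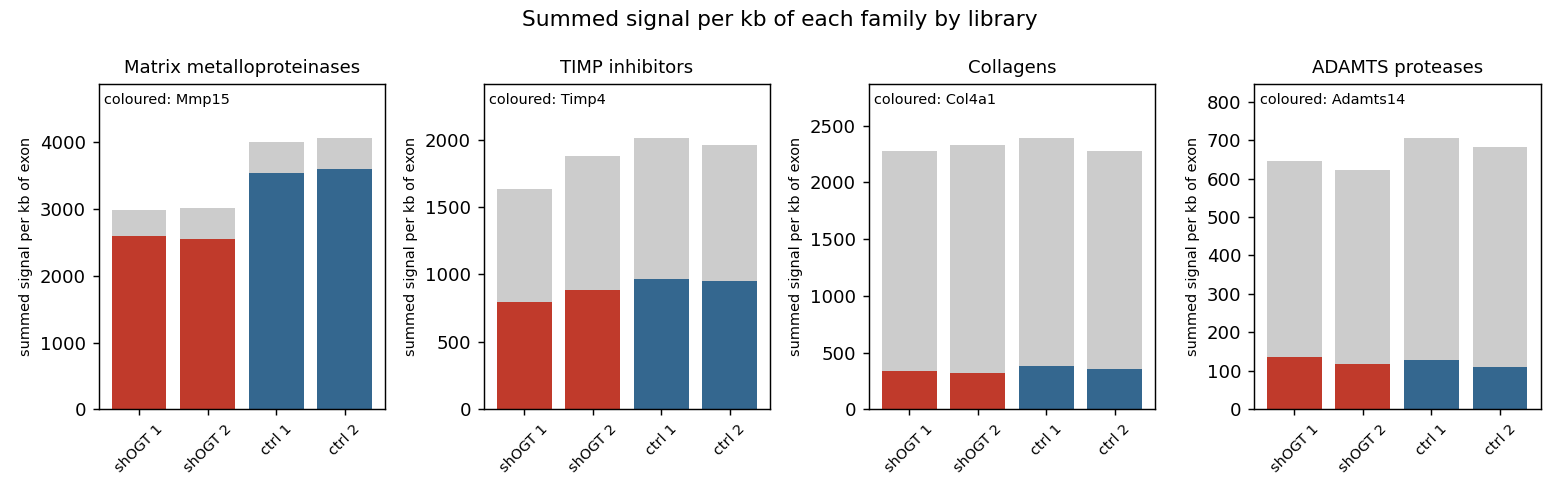
Signal per kb of exon summed over the MMPs, TIMPs, collagens and ADAMTS proteases in each library (bars from 0), with 1 member coloured, the one with the highest mean over the 4 libraries, red in shOGT and blue in ctrl. The MMP sum follows Mmp15, while the collagen sums of shOGT (2273 and 2329) and ctrl (2392 and 2280) overlap.

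ADAMTS proteases were expressed as a broad set. Of 17 tested, 2 were called lower and 0 higher, and in 9 both shOGT values lay below both ctrl values, in 3 above. Of all genes tested, 2.90% were called lower and 1.96% higher, and 24.3% lay apart with lower and 25.0% with higher values. Adamts1, which cuts versican and aggrecan, measured 533 and 554 in shOGT, against 734 and 698 in ctrl. It fell by 24.1% (log2 fold change -0.40 ± 0.07, limma adjusted p = 0.0122) and lies on the minus strand of chromosome 16, at 85793827 to 85803113. Adamts3, a procollagen N-proteinase that also processes the growth factor VEGF-C, was low and measured 20.2 and 14.1 in shOGT, against 39.9 and 44.6 in ctrl (-1.27 ± 0.30, adjusted p = 0.0465). Adamts3 lies on the minus strand of chromosome 5, at 89677087 to 89883334.

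Several relatives of Adamts1 had lower values without passing. Adamts9 measured 721 and 698 in shOGT and 849 and 834 in ctrl (log2 fold change -0.25 ± 0.06, adjusted p = 0.0504), and its exons overlap A730049H05Rik and Gm15737. Adamts4, an aggrecanase, measured 280 and 277 in shOGT and 354 and 310 in ctrl (-0.25 ± 0.10, adjusted p = 0.190). Adamts5, another aggrecanase, measured 139 and 148 in shOGT and 155 and 181 in ctrl (-0.22 ± 0.13, adjusted p = 0.411). Adamts15, at a lower level, measured 19.1 and 22.6 in shOGT and 41.9 and 38.7 in ctrl (-0.92 ± 0.28, adjusted p = 0.0990). In each of these 4 genes the shOGT libraries were the lower pair.

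The relatives of Adamts3 among the procollagen N-proteinases did not pass the test. Adamts14 measured 708 and 617 in shOGT and 659 and 571 in ctrl, overlapping (log2 fold change 0.11, 95% interval -0.10 to 0.31), and Adamts2 was near the floor at 7.44 and 9.43 in shOGT and 8.98 and 11.9 in ctrl. Per kb, Adamts14 had a signal of 127 in shOGT and 118 in ctrl, and Adamts1 one of 103 in shOGT and 135 in ctrl. Adamts6 measured 492 and 512 in shOGT and 434 and 478 in ctrl (0.14 ± 0.08, 95% interval -0.04 to 0.32, limma adjusted p = 0.376). Adamts7 (-0.11), Adamts10 (-0.05) and Adamts12 (-0.06) had intervals that included 0 as well. Among ADAMTS-like proteins, which lack the protease domain, Adamtsl3 measured 333 and 339 in shOGT and 392 and 410 in ctrl (-0.25 ± 0.08, adjusted p = 0.118). Adamtsl1 measured 17.0 and 25.5 in shOGT and 7.98 and 9.92 in ctrl (1.14 ± 0.40, adjusted p = 0.149).

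**Figure D4:**
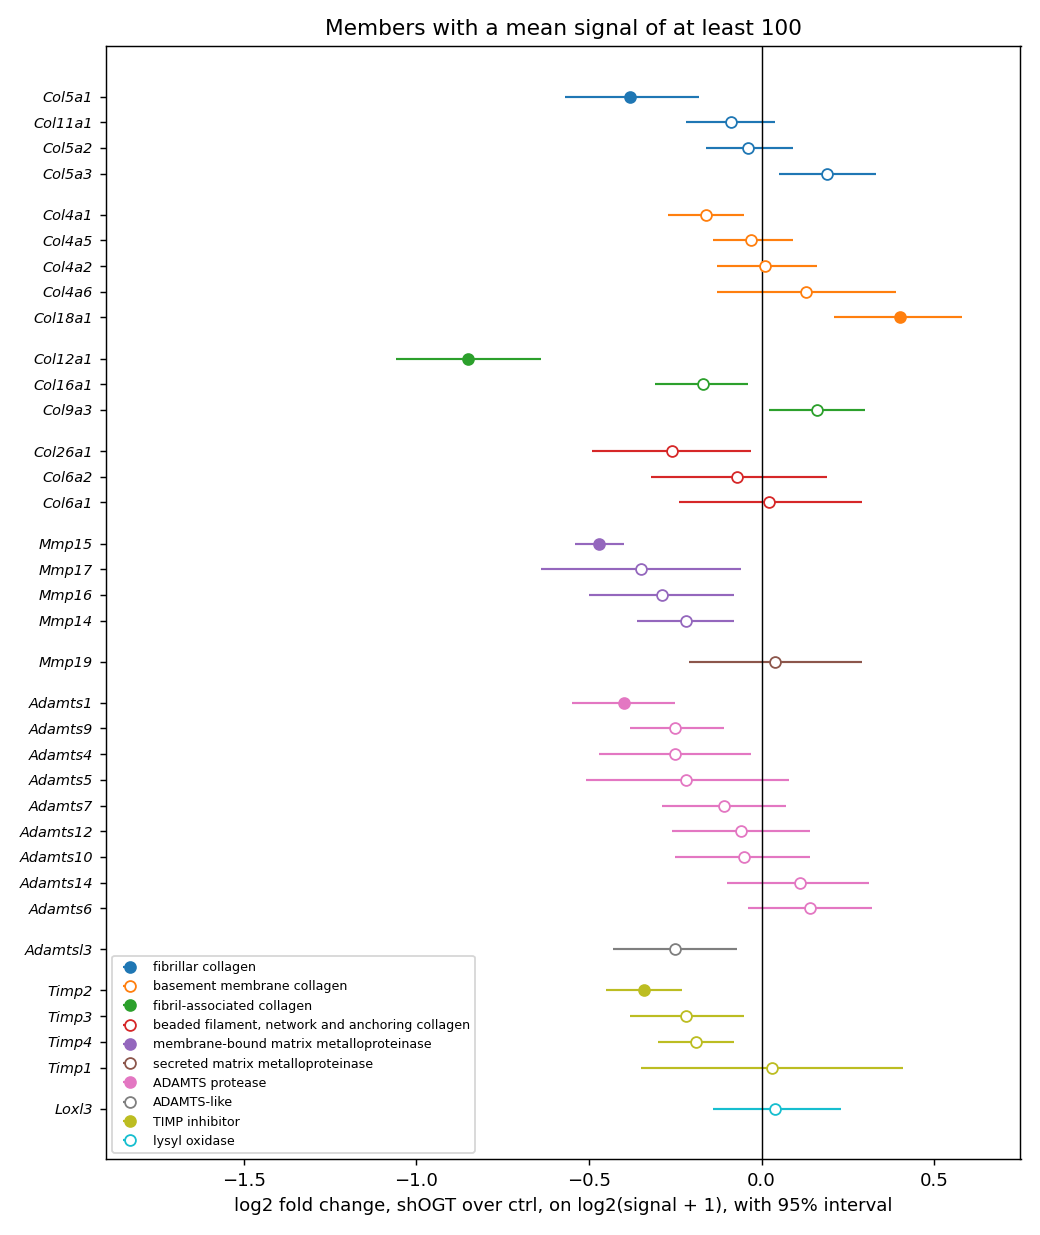
Log2 fold change of shOGT over ctrl with its 95% interval for the 35 members with a mean signal of at least 100, grouped and coloured by role; filled points are called at an adjusted p under 0.05. The 4 membrane-bound MMPs of that level lie left of 0, the collagens on both sides.

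Of 42 collagen genes tested, 2 were called lower and 1 higher, near the shares over all genes of 2.90% and 1.96%. Col12a1, a collagen that coats fibrils, measured 187 and 183 in shOGT, against 328 and 340 in ctrl. The groups were far apart, and the mean fell by 44.6% (log2 fold change -0.85 ± 0.10, limma adjusted p = 0.00227). Col12a1 (ENSMUSG00000032332) lies on the minus strand of chromosome 9, at 79598991 to 79718831 on GRCm38. Other fibril-associated collagens of measurable level did not pass. Col16a1 measured 1820 and 1648 in shOGT and 2004 and 1906 in ctrl (-0.17 ± 0.06, adjusted p = 0.135), and Col9a3 857 and 887 in shOGT and 802 and 757 in ctrl (0.16 ± 0.06, adjusted p = 0.187). Col19a1, known from developing muscle and from neurons, was low and measured 7.44 and 5.66 in shOGT against 21.9 and 18.8 in ctrl (-1.51 ± 0.40, adjusted p = 0.0674).

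Col18a1 encodes collagen XVIII, a heparan sulphate proteoglycan of basement membranes whose end fragment is endostatin. It measured 654 and 570 in shOGT, against 476 and 452 in ctrl. Both shOGT values lay above both ctrl values, and the mean was 31.9% higher (log2 fold change 0.40 ± 0.08, limma adjusted p = 0.0293). Col18a1 (ENSMUSG00000001435) lies on the minus strand of chromosome 10, at 77052178 to 77166548 on GRCm38. The summed endothelial markers given above also lay higher in shOGT, with both shOGT values above both ctrl values in 5 of 6 (25.0% of all genes tested), and 0 of 6 called by limma or at an unadjusted p under 0.05; their part in the result was not tested.

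The collagen IV chains, which build basement membrane sheets, did not pass the test, and Col4a1 alone among the abundant ones had both shOGT values below both ctrl values. Col4a1 measured 2511 and 2403 in shOGT and 2834 and 2656 in ctrl (log2 fold change -0.16 ± 0.05, adjusted p = 0.104). Col4a2, its partner in the helix and its neighbour on the chromosome, measured 634 and 632 in shOGT and 611 and 642 in ctrl (0.01, 95% interval -0.13 to 0.16). Col4a5 differed by -0.03 (95% interval -0.14 to 0.09) and Col4a6 by 0.13 (-0.13 to 0.39). The chains of the adult kidney network, Col4a3 and Col4a4, were low, at 6.38 and 4.71 in shOGT and 0.997 and 4.96 in ctrl for Col4a3 and 21.3 and 23.6 in shOGT and 14.0 and 13.9 in ctrl for Col4a4.

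Of the 3 chains of collagen V, a regulator of fibril diameter, 1 was called lower. Of all genes with a mean signal of at least 100, 5.60% were called lower. Col5a1 measured 305 and 322 in shOGT, against 428 and 388 in ctrl, and fell by 23.1% (log2 fold change -0.38 ± 0.09, limma adjusted p = 0.0437). Col5a1 lies on the plus strand of chromosome 2, at 27886425 to 28039514, and shares exon bases with 2810430I11Rik and Gm13372 on the other strand. Col5a2 measured 2669 and 2912 in shOGT and 2971 and 2761 in ctrl, overlapping (-0.04, 95% interval -0.16 to 0.09). Col5a3 measured 1428 and 1431 in shOGT and 1323 and 1182 in ctrl (0.19 ± 0.06, adjusted p = 0.121). Per kb, the log2 ratio of Col5a1 to Col5a3 was -2.54 and -2.47 in shOGT, against -1.95 and -1.93 in ctrl, and that of Col5a1 to Col5a2 was -2.95 and -3.00 in shOGT, against -2.62 and -2.66 in ctrl. Both ratios were lower in both shOGT libraries; they carry no test of their own. Col11a1, a related fibril chain, measured 1246 and 1210 in shOGT and 1359 and 1261 in ctrl (-0.09 ± 0.06, adjusted p = 0.425).

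**Figure D5:**
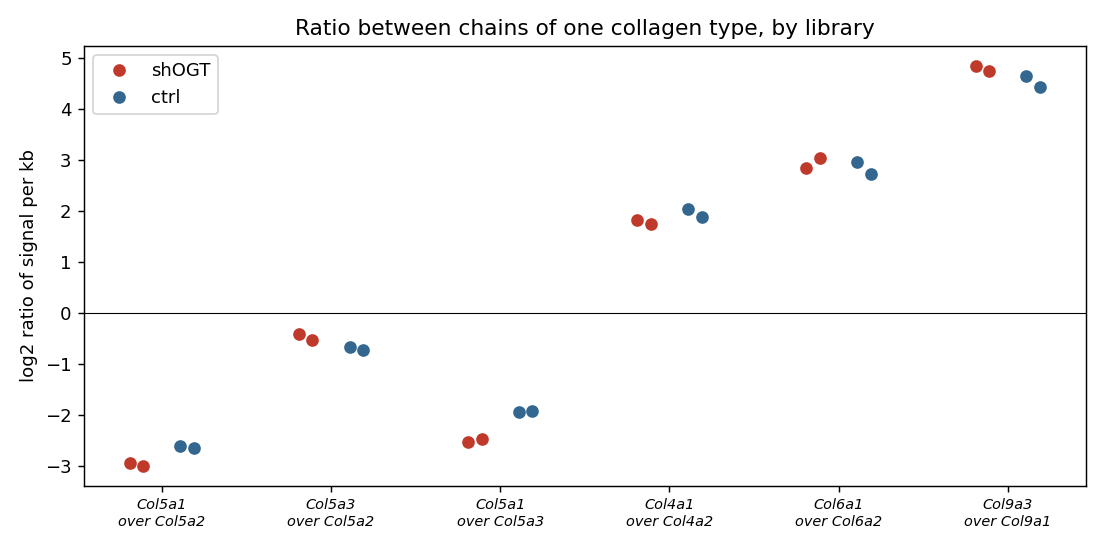
Log2 ratio of the signal per kb between chains of the same collagen type (vertical axis), each point 1 library, red for shOGT and blue for ctrl. The groups are apart for the 3 collagen V ratios and also for Col4a1 over Col4a2 and Col9a3 over Col9a1. They overlap for Col6a1 over Col6a2, and also for Col4a6 over Col4a5, which is not plotted. Each of the 3 collagen V ratios follows from the others. How often the groups lie apart in ratios of other gene pairs was not computed.

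The chains of collagen I and collagen III were close to absent. Col1a1 measured 14.9 and 7.54 in shOGT and 11.0 and 14.9 in ctrl, Col1a2 2.13 and 2.83 in shOGT and 4.99 and 0.992 in ctrl, and Col3a1 5.32 and 3.77 in shOGT and 3.99 and 5.95 in ctrl. The groups overlapped in all of these genes. Collagen VI, which forms beaded filaments, was present through Col6a1, with 914 and 1252 in shOGT and 1078 and 1026 in ctrl, and Col6a2, with 242 and 292 in shOGT and 264 and 294 in ctrl. Neither differed beyond the spread of its libraries (log2 fold changes 0.02 ± 0.12 and -0.07 ± 0.12). Col26a1 measured 383 and 317 in shOGT and 425 and 409 in ctrl (-0.26 ± 0.10, adjusted p = 0.198), and Col28a1 122 and 91.4 in shOGT and 84.8 and 70.4 in ctrl (0.45 ± 0.19, adjusted p = 0.240). The transmembrane collagen Col17a1 was listed at 0 in both ctrl libraries and at 1.06 and 4.71 in shOGT.

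Among the lysyl oxidases Loxl3 made up 79.9% and 88.1% of the family's per-kb signal in shOGT and 79.3% and 82.0% in ctrl. It measured 507 and 583 in shOGT and 543 and 512 in ctrl (log2 fold change 0.04, 95% interval -0.14 to 0.23), and its exons overlap Htra2. Loxl2 differed between the shOGT libraries, at 79.7 and 29.2, and measured 94.7 and 75.4 in ctrl (-0.79 ± 0.38, adjusted p = 0.298). Loxl1 measured 30.8 and 28.3 in shOGT and 20.9 and 19.8 in ctrl (adjusted p = 0.384), Loxl4 14.9 and 11.3 in shOGT and 26.9 and 16.9 in ctrl (adjusted p = 0.381), and Lox stayed at or below 1.99. The remaining low members add little: of 50 tested members with a mean below 100, 43 had an unadjusted p of 0.05 or more, means of 1.25 to 69.8 and adjusted p-values of 0.264 or more, and in 26 of the 43 the groups overlapped.

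Genes that make, bind or meet these matrix proteins were read from lists written for this comparison. Of all genes tested, 2.90% were called lower and 1.96% higher, and 5.60% and 3.62% of those with a mean signal of at least 100. Of 27 genes of collagen biosynthesis, 3 were lower and 1 higher, with a median log2 fold change of -0.09. P4ha1, the catalytic subunit of collagen prolyl hydroxylase, measured 1702 and 1342 in shOGT, against 2225 and 2003 in ctrl (-0.48 ± 0.10, limma adjusted p = 0.0249). Its partner subunit P4hb (-0.19 ± 0.03, adjusted p = 0.0142) and Plod3, a collagen lysyl hydroxylase and glycosyltransferase (-0.21 ± 0.05, adjusted p = 0.0460), fell as well. The call of Plod3 was lost without ctrl 1 (adjusted p = 0.105) and without ctrl 2 (0.134). Pcolce, which enhances removal of the procollagen C-propeptide, rose to 252 and 249 in shOGT, against 157 and 156 in ctrl (0.68 ± 0.11, adjusted p = 0.00876). Of 10 tested collagen receptors, Itgb1, the common beta subunit of collagen-binding integrins, was lower (-0.26 ± 0.03, adjusted p = 0.00334) and 0 were higher, and the list's median was 0.06, against -0.08 when shOGT 1 was left out.

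Of 11 ADAMTS substrates and link proteins, 2 were lower and 1 higher, against 2.90% and 1.96% of all genes tested. The list's median was -0.18. Leaving out 1 library gave a median of -0.42 (ctrl 1), -0.05 (ctrl 2), -0.21 (shOGT 1) or 0.04 (shOGT 2). Ncan, neurocan, measured 10465 and 11169 in shOGT, against 17770 and 17506 in ctrl (-0.71 ± 0.04, limma adjusted p = 0.000156). Vcan, versican, measured 2239 and 2364 in shOGT, against 3205 and 3074 in ctrl (-0.45 ± 0.05, adjusted p = 0.00168). Reln, reelin, measured 438 and 514 in shOGT, against 310 and 312 in ctrl (0.61 ± 0.09, adjusted p = 0.00873). The RNAs of Adamts1 and of its substrate versican were both lower in shOGT, while that of Reln rose and that of Adamts3 fell. A link between these changes was not tested.

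Of 25 tested genes of other matrix protease systems, 5 were lower and 1 higher, with a median of -0.05. Of all genes tested, 2.90% were called lower and 1.96% higher. Furin, the convertase that activates pro-forms of membrane MMPs and ADAMTS enzymes, measured 529 and 561 in shOGT, against 701 and 711 in ctrl (-0.37 ± 0.07, limma adjusted p = 0.0151). Ctsl, cathepsin L (-0.36 ± 0.06), Htra1, a secreted serine protease (-0.31 ± 0.07), Adam12 (-0.24 ± 0.05) and Adam17, the sheddase of TNF (-0.18 ± 0.04, adjusted p = 0.0483), fell as well. The call of Adam17 was lost without ctrl 1 (adjusted p = 0.0979) and without ctrl 2 (0.181), and that of Htra1 without ctrl 2 (0.0511). Ctsk, cathepsin K, was low but called higher, and measured 15.9 and 17.0 in shOGT and 1.99 and 2.98 in ctrl (adjusted p = 0.0257). Of 27 tested elastic fibre and fibril-associated genes, 1 was lower, Ltbp4, a TGF-beta binding protein of elastic fibres (-0.38 ± 0.09, adjusted p = 0.0390), and 0 were higher, with a median of -0.09.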

How the data were processed

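RNA sequencing values of 4 libraries of mouse adult neural stem cells were used. The authors deposited 1 normalized signal value per gene and library; the genome build is mm10, per the submitters' processing notes, while the sources used here name no aligner, counter, strand setting or normalization. Per the labels' protocols, total RNA was extracted with TRIzol. Symbols, positions and merged exon lengths came from GENCODE M21 (GRCm38), which matched 25250 identifiers and not 11; promoters came from RefSeq (GRCm38.p6). All genes were fitted with limma 3.58.1 in R 4.3.3 (empirical Bayes with a variance trend, pseudocount 1, minimum value 1 in 2 libraries, Benjamini-Hochberg adjustment). The fit was also run on simulated counts that vary by sampling noise only, so that the simulation cannot give the error rate of the calls here. Replicates differed beyond sampling noise, with a chi-square of 3.33 per gene in shOGT and 2.02 in ctrl. Values in the text are given for called members and those of mean signal at least 100. They are also given for the Timp and Lox families and for members at an unadjusted p under 0.05. Low members (Mmp2, Mmp9, Mmp11, Mmp23, Mmp25, Mmp28, Adamts2, Col4a3, Col4a4, Col1a1, Col1a2, Col3a1) were added for their role after their values were seen. Of the pathway and marker lists, called genes are named, except 1 that is not reported here. Members and lists were chosen with earlier results of these data known. The alternatives were other filters, pseudocounts, scalings, variance fits, a replicate block and leaving out each library.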

Additional observations from a re-analysis of the deposited data

How the results depend on the processing

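The log2 fold changes of the 7 called members kept their sign in all 13 alternatives, but their calls depended on the fit. Since their groups did not overlap, other filters, pseudocounts or leaving out a library could not have reversed a sign. Limma called 0 genes of the whole table, members and lists included, with no filter on low values, with quantile normalization and with no variance trend (4302, 3998 and 2763 genes at an unadjusted p under 0.05; 25, 22 and 19 of them members). The cause was not tested. At a minimum value of 10 it called 822 genes higher and 1133 lower, with 3 members higher and 13 lower. With quantile normalization added at that minimum, an alternative chosen after seeing the data, it called 799 genes higher and 858 lower, with 1 member higher and 10 lower. Of the 7 called members, all remained called at a minimum of 10, at a pseudocount of 5 and with libraries rescaled to equal totals, and 5 at a pseudocount of 0.5, where Col5a1 (adjusted p = 0.0512) and Adamts3 (0.0520) were lost. Among list genes, Plod3 and Adam17 lost their calls at a pseudocount of 0.5 (adjusted p = 0.0529 and 0.0548) and with rescaled libraries (0.0555 and 0.0583), and Ltbp4 at a pseudocount of 0.5 (0.0508). Rescaling moved the split of all calls to 593 higher and 585 lower, against 427 and 633. Leaving out 1 library, which leaves a group of 1 assumed to vary like the other pair, gave 0 to 573 genes higher and 0 to 660 lower, 0 to 3 members higher and 0 to 8 lower, and a member median of -0.14 to -0.06. In the lists it gave, higher and lower, 0 to 1 and 0 to 3 for collagen biosynthesis, 0 to 1 and 0 to 1 for receptors (median -0.08 to 0.10), 0 to 2 and 0 to 4 for other protease systems, 0 to 1 and 0 to 2 for ADAMTS substrates, and 0 to 1 and 0 to 1 for elastic fibre genes. Counts of higher genes in the lists were 1 for receptors at a minimum of 10 (also with quantile normalization), with rescaled libraries and with the replicate block. They were 2 for other protease systems and 2 for elastic fibre genes at a minimum of 10 and with the block, and 1 for elastic fibre genes with rescaled libraries, where a pseudocount of 0.5 left 0 lower. Libraries of the same number did not deviate together (correlation 0.0073 over genes), and the replicate block raised the calls to 1007 higher and 1295 lower, with 3 members higher and 15 lower. The planned edgeR and DESeq2 fits were not run, since the values are normalized. Depth limits members below a signal of about 10, where 1 read is a step of 0.943 to 1.06.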

Other observations

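Among the 35 members with a mean signal of at least 100, the median gap between the 2 libraries of a group was 0.09 on the log2 scale in shOGT and 0.08 in ctrl. The widest gaps in shOGT were those of Timp1 (0.61, against 0.21 in ctrl), Col6a1 (0.45, against 0.07), Mmp19 (0.37, against 0.08) and Col4a6 (0.32, against 0.22). For Timp1, Col6a1, Mmp19 and Col4a6 the higher value was in shOGT 2.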
